A study of Mus musculus with 6 samples.

Results

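The genes described here encode the mitochondrial respiratory chain and the ATP synthase, measured by RNA sequencing in primary aortic endothelial cells, which form the inner lining of the vessel. They were chosen by symbol: the Nduf subunits of complex I, the Sdh genes of complex II, the Uqcr genes of complex III, the Cox4 to Cox8 genes of complex IV, the Atp5 genes of complex V, Cycs, and every gene with the mt- prefix, with pseudogenes left out. The rule found 97 of the 17067 genes in the deposited table, 84 encoded in the nucleus and 13 in the mitochondrial genome. The study compared 3 samples from wild-type C57BL/6 mice infused with angiotensin II (AngII), a peptide hormone that constricts vessels, with 3 samples from wild-type C57BL/6 mice infused with saline. Mice of 8 weeks carried osmotic pumps that delivered AngII at 1000 ng per kg per min, or saline, for 14 days. The aorta was then cut into 2 mm pieces and placed on Matrigel with medium that held an endothelial growth factor, heparin and fetal calf serum at 20%, and cells migrated out after 5 to 7 days, so both groups were cultured before RNA was taken. The labels do not say how many mice gave each sample.

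The chain passes electrons from NADH (complex I) or succinate (complex II) through coenzyme Q to complex III, from there through cytochrome c to complex IV, and finally to oxygen. Complexes I, III and IV move protons across the inner mitochondrial membrane, and complex V uses the return flow to make ATP. Complexes I, III, IV and V are built from proteins of both genomes, while complex II is encoded in the nucleus alone. Aortic endothelial cells are known to draw much of their ATP from glycolysis, and their mitochondria are also known as sources of signalling oxidants.

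Total counts ranged from 21154724 to 23004780 in the saline samples and from 22646065 to 25141992 in the AngII samples. The endothelial markers fixed for the check were abundant, with a summed level of 5728 to 5788 counts-per-million (CPM) in saline and 5592 to 6118 CPM in AngII, and 3 of 10 rose while 5 fell. Markers of smooth muscle summed to 89.51 to 91.49 CPM in saline and 107.8 to 112.2 CPM in AngII, nearly all of it Smtn, which rose, whereas the other tested markers, Des and Myh11, fell from 1.344 to 1.86 CPM to at most 0.2001 CPM and from 0.6935 to 1.365 CPM to at most 0.252 CPM, and Acta2 was at no more than 0.2268 CPM in any sample. The fibroblast markers summed to 22 to 23.06 CPM in saline and 29.33 to 33.09 CPM in AngII, and 3 of the 4 tested rose. The untested markers Dcn, Lum and Col1a1 were at no more than 0.2669, 0.04536 and 0.1334 CPM in any sample. Mesothelial markers summed to 3.356 to 3.511 CPM in saline and 1.557 to 1.932 CPM in AngII, and striated muscle markers stayed at or below 1.905 CPM. Macrophage markers summed to 270.5 to 275 CPM in saline and 263.8 to 279.6 CPM in AngII, carried by Cd68, which did not pass. The other of the 2 tested, Lyz2, rose from low levels. It was at 2.259, 2.54 and 2.731 CPM in saline and 3.317, 3.514 and 3.161 CPM in AngII, a call lost in 5 of 16 alternatives. Ptprc, which defines leukocytes, was at most 0.13 CPM, and the adipocyte markers summed to at most 0.4619 CPM. The part that other cell types play in the results below was not tested, and in such bulk samples a change in the number of cells of a type and a change in RNA per cell cannot be told apart.

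Respiratory chain transcripts were more often lower than higher in cells from AngII-infused mice, by small amounts. Of the 92 genes that passed the count filter, 40 fell and 10 rose at an adjusted p below 0.05. Over all 12277 tested genes, 28.6% fell and 29% rose, 57.6% in either direction, so the chain held about as many changed genes as the rest of the transcriptome but in an uneven split, with 43.5% falling and 10.9% rising. The changes were modest: the median log2 fold change of the tested members was -0.08, against 0.0001 over all tested genes, and the median absolute value was 0.11, against 0.19. Only 9 members moved past 0.32 on the log2 scale. Tested against a change of 1.2-fold instead of no change, 1 nuclear gene was higher, Uqcrq, and 5 were lower, Ndufa11, Ndufb6, Cox8a, Cox6a1 and Atp5if1, and of the mitochondrially encoded genes 0 passed in either direction. The plot of all members shows more falls than rises among the nuclear genes of every complex and a single large rise in complex III. The share of nuclear genes falling was 33.3% in complex I, 50% in II and in III, 72.7% in IV and 35.3% in V.

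**Figure D1:**
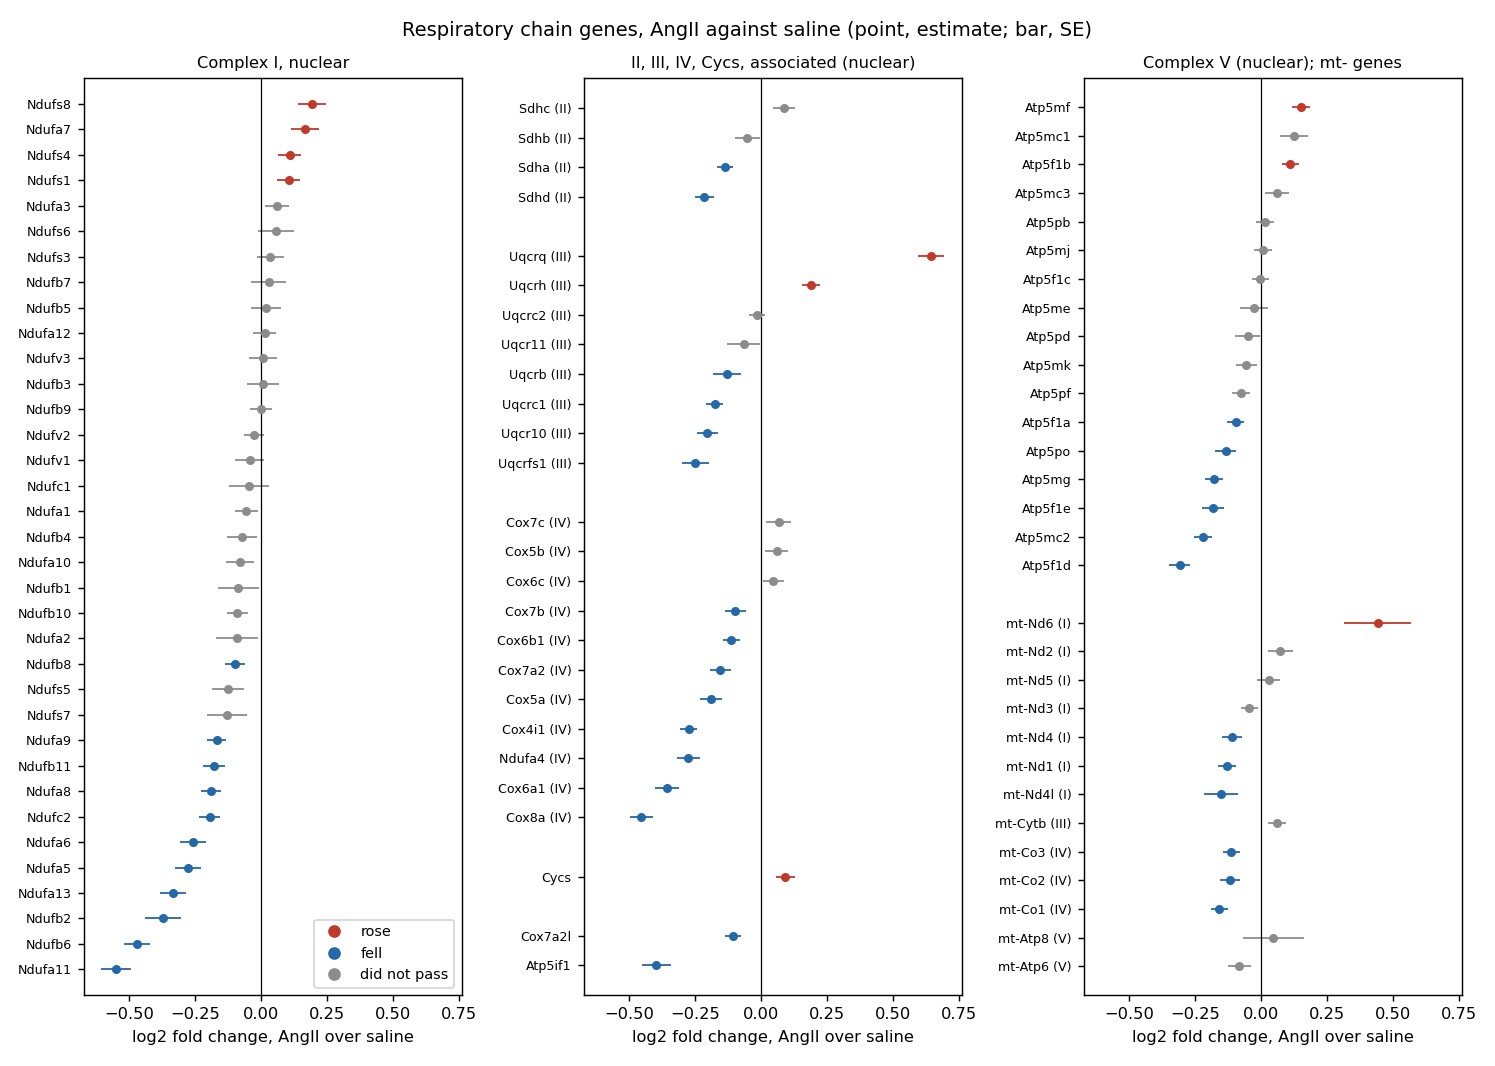
Log2 fold change of AngII over saline (x axis) for the tested respiratory chain genes (y axis), 1 of them not shown, grouped by complex, with points for the estimate and bars for its standard error (n = 3 samples per group). Red points rose, blue points fell and grey points did not pass; Uqcrq lies farthest right at 0.64 and Ndufa11 farthest left at -0.55.

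Among nuclear genes 34 of 79 fell and 9 rose, with a median log2 fold change of -0.08, and among mitochondrially encoded genes 6 of 13 fell and 1 rose, also with a median of -0.08, which was -0.13 without AngII replicate 2. The 9 nuclear rises became 5 without saline replicate 1 and 4 without saline replicate 2, and the 1 mitochondrial rise became 2 without AngII replicate 1, 3 without AngII replicate 3 and 0 without saline replicate 3. Correction of each sample for a trend with the GC content and length of transcripts moved the nuclear median from -0.08 to -0.05, with 31 falls and 10 rises, and gave -0.10 for the mitochondrially encoded genes. Together the nuclear genes gave 0.674%, 0.679% and 0.698% of all counts in saline and 0.642%, 0.646% and 0.662% in AngII, so every AngII sample lay below every saline sample. The mitochondrially encoded genes gave 4.556%, 4.484% and 4.608% of counts in saline and 4.221%, 4.292% and 4.028% in AngII, again without overlap. The ratio of mitochondrial to nuclear counts was 6.756, 6.603 and 6.599 in saline and 6.576, 6.646 and 6.086 in AngII, and these ranges overlapped.

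**Figure D2:**
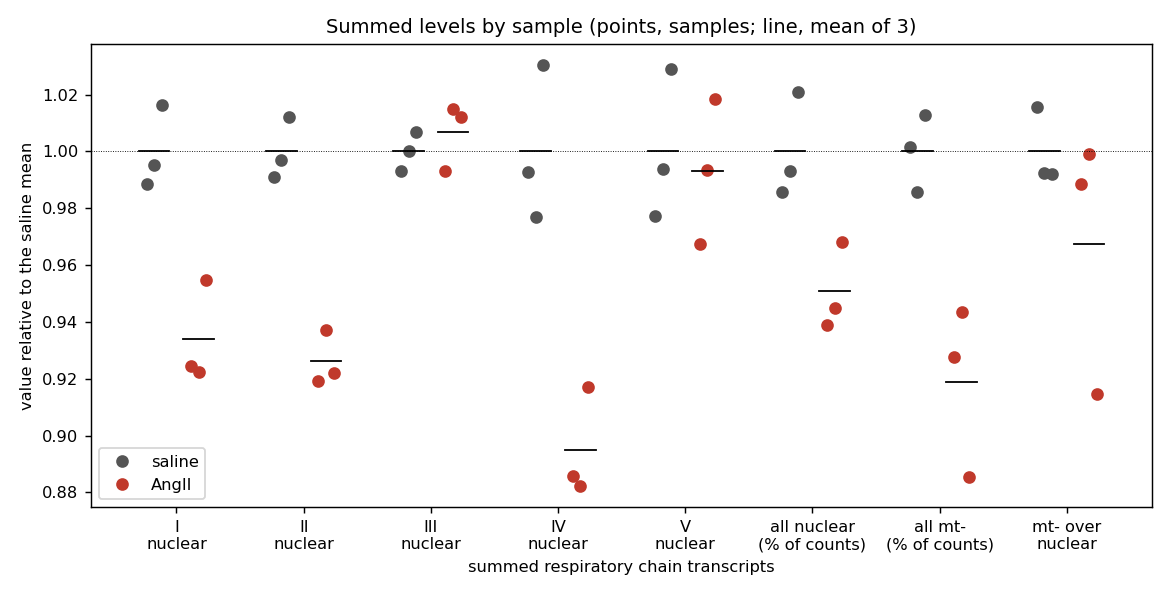
Summed level of each complex's nuclear genes, of all nuclear and all mt- genes, and their ratio, in each sample relative to the saline mean (y axis, not starting at 0). Complexes I, II and IV lie below saline in every AngII sample, with complex IV lowest at a mean of 0.895, while complexes III and V overlap between groups.

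Complex I, the NADH dehydrogenase, showed 12 falls and 4 rises among its 36 nuclear genes, or 33.3% and 11.1%, beside 28.6% and 29% over all genes. Its summed level was 1640, 1651 and 1686 CPM in saline and 1534, 1530 and 1584 CPM in AngII. Its median log2 fold change of -0.08 became -0.01 once the GC and length trend was removed, and it was -0.05 without saline replicate 1 or AngII replicate 1. The 4 rises became 2 with DESeq2 or without saline replicate 1, AngII replicate 2 or AngII replicate 3, and 1 without saline replicate 2. Of the 4, Ndufs1 and Ndufs4 also did not pass with scaling by library totals alone or with a 5 CPM filter. Among the supernumerary subunits, which surround the catalytic core, 11 of 29 fell and 2 rose.

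Ndufa11, a supernumerary subunit of the membrane arm (chr17:56717767-56722141, GRCm38), had the largest fall of the chain. Its level was 34.64, 33.07 and 35.5 CPM in saline and 22.17, 23.84 and 24.45 CPM in AngII. The groups were far apart, and the log2 fold change was -0.55 ± 0.06 (SE; adjusted p = 1.1e-07). Ndufb6, of the distal membrane arm, was at 43.16, 44.68 and 44.91 CPM in saline and 30.23, 32.64 and 32.93 CPM in AngII, a log2 fold change of -0.47 ± 0.05 (adjusted p = 1.5e-07). No AngII sample reached the saline range, and the falls of Ndufa11 and Ndufb6 passed under every alternative tried, the 1.2-fold test included. Ndufb2, another membrane arm subunit, fell by 0.37 on the log2 scale, from 18.4, 17.19 and 18.08 CPM to 14.28, 13.12 and 14.01 CPM. Ndufa13, also known as GRIM-19 and needed for assembly of the complex, was at 38.36, 36.83 and 38.53 CPM in saline and 31.41, 29.98 and 28.85 CPM in AngII (log2 fold change -0.33). For both genes the groups did not overlap.

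Ndufs8, a core subunit that carries iron-sulfur clusters, was at 28.71, 28.39 and 29.61 CPM in saline and 32.08, 32.11 and 34.74 CPM in AngII and rose by 0.19 ± 0.05 (adjusted p = 0.00477). Ndufs1, the largest iron-sulfur core subunit, rose by 0.10, and the accessory subunit Ndufs4 by 0.11, but each of these calls was lost in 11 of 17 alternatives, DESeq2 among them. Ndufa7, a supernumerary subunit, rose by 0.16, from 30.22, 28.71 and 29.3 CPM to 34.06, 31.36 and 33.41 CPM, and did not pass without saline replicate 2. Ndufv1, which binds NADH and the flavin, was at 48.66, 53.02 and 58.26 CPM in saline and 49.05, 53.37 and 52.9 CPM in AngII, with overlapping groups (adjusted p = 0.508).

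Complex II, succinate dehydrogenase, also belongs to the citric acid cycle. Sdha, the flavin subunit that oxidises succinate, was at 163.9, 165.7 and 168.1 CPM in saline and 150.2, 150.1 and 152.3 CPM in AngII, a log2 fold change of -0.14 ± 0.03 (adjusted p = 0.00081). Sdhd, a membrane anchor, was at 81.47, 82.51 and 82.18 CPM in saline and 69.75, 72.98 and 69.27 CPM in AngII (log2 fold change -0.22 ± 0.04, adjusted p = 4.3e-05). Both genes were lower in every AngII sample than in any saline sample. The other anchor, Sdhc, had a log2 fold change of 0.09 (adjusted p = 0.0866) and the iron-sulfur subunit Sdhb one of -0.05 (adjusted p = 0.358), so the genes of this complex did not pass as a block.

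Complex III, which passes electrons from coenzyme Q to cytochrome c, held changes in both directions, 4 falls and 2 rises among 8 genes, and its summed level overlapped between groups at 737, 742 and 747 CPM in saline and 737, 753 and 751 CPM in AngII. Uqcrq, a small subunit of the complex (chr11:53427922-53430831, GRCm38), had the largest rise of all members. It was at 34.59, 33.34 and 37.15 CPM in saline and 52.07, 57.6 and 54.74 CPM in AngII, which is 1.56-fold higher. The groups were clearly apart, with a log2 fold change of 0.64 ± 0.05 (adjusted p = 3.6e-09), and Uqcrq was the only rise that passed under every alternative. Uqcrh, the acidic hinge subunit near the cytochrome c site, was at 190, 188.8 and 183 CPM in saline and 218.5, 219.1 and 203.5 CPM in AngII (log2 fold change 0.19 ± 0.03, adjusted p = 0.00012).

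The other nuclear genes of complex III, catalytic, core and small, went the other way or did not pass. Uqcrfs1, the Rieske iron-sulfur protein, was at 52.71, 56.29 and 57.65 CPM in saline and 44.05, 45.23 and 50.78 CPM in AngII, a log2 fold change of -0.25 ± 0.05 (adjusted p = 0.00044). The core subunit Uqcrc1 fell by 0.18 and the small subunit Uqcr10 by 0.20, the latter not passing once the GC and length trend was removed. The groups did not overlap for these 3 genes. Uqcrb fell by 0.13 with overlapping groups, a call lost in 7 of 17 alternatives. The other core subunit, Uqcrc2, was at 180.6, 182.8 and 183.5 CPM in saline and 179.2, 181.1 and 180.5 CPM in AngII, a log2 fold change of -0.02 ± 0.03 (adjusted p = 0.662). Uqcrc2 passed in 2 of 17 alternatives, both with the GC and length trend removed. Cyc1, the cytochrome c1 gene, which the rule does not include, was at 52.76, 53.02 and 52.49 CPM in saline and 48.92, 48.3 and 50.94 CPM in AngII, and it did not pass (adjusted p = 0.0508). Its groups did not overlap, however, and it passed in 5 of 17 alternatives.

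Complex IV, cytochrome c oxidase, had the lowest median of the complexes' nuclear genes, -0.15 on the log2 scale, with 8 of 11 tested genes falling and 0 rising. DESeq2 and limma-voom each called 7 falls and 0 rises, and edgeR at an unadjusted p below 0.05 called 8 and 0. Without saline replicate 3, 2 genes rose. Its summed level was 1132, 1114 and 1175 CPM in saline and 1010, 1006 and 1046 CPM in AngII. Cox8a, a small membrane subunit (chr19:7215153-7217616, GRCm38), was at 135, 127.2 and 142.4 CPM in saline and 97.88, 93.75 and 103.5 CPM in AngII. All 3 AngII samples lay below all saline samples, and the log2 fold change was -0.45 ± 0.04 (adjusted p = 4.8e-08). Cox6a1, a subunit that binds regulatory nucleotides, was at 59.39, 55.34 and 58.95 CPM in saline and 44.47, 43.54 and 47.5 CPM in AngII (log2 fold change -0.36 ± 0.04, adjusted p = 1.8e-06). Cox4i1, the ubiquitous isoform of the largest nuclear subunit, was at 177.3, 171.3 and 182.7 CPM in saline and 149.1, 145.4 and 144.9 CPM in AngII (log2 fold change -0.27 ± 0.03, adjusted p = 1e-06). These groups were likewise apart.

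Ndufa4, named for complex I but now placed in complex IV, fell by 0.28, and Cox5a fell by 0.19. Cox7a2 fell by 0.15, Cox6b1 by 0.11 and Cox7b by 0.10. The call of Cox6b1 was lost with the GC and length trend removed, that of Cox7a2 when the replicate block was added to that fit, and that of Cox7b in 7 of 17 alternatives. Cox5b, Cox6c and Cox7c did not pass, with log2 fold changes between 0.05 and 0.07. The isoforms known from heart and skeletal muscle or from testis were near 0 in these cells and were not tested: Cox6a2 at 0 to 0.2801 CPM, Cox7a1 at 0 to 0.09072 CPM, Cox7b2 at 0 to 0.04448 CPM and Cox6b2 at 0 to 0.6068 CPM over the 6 samples. Ndufa4l2, the hypoxia-induced relative of Ndufa4, was at 0.09413, 0.4989 and 0.3901 CPM in saline and 0.08398, 0.04448 and 0.04002 CPM in AngII, too few counts to be tested. The deposited table held no row under the symbols Cox4i2, Cox8b or Cox8c, so these isoforms could not be analysed.

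**Figure D3:**
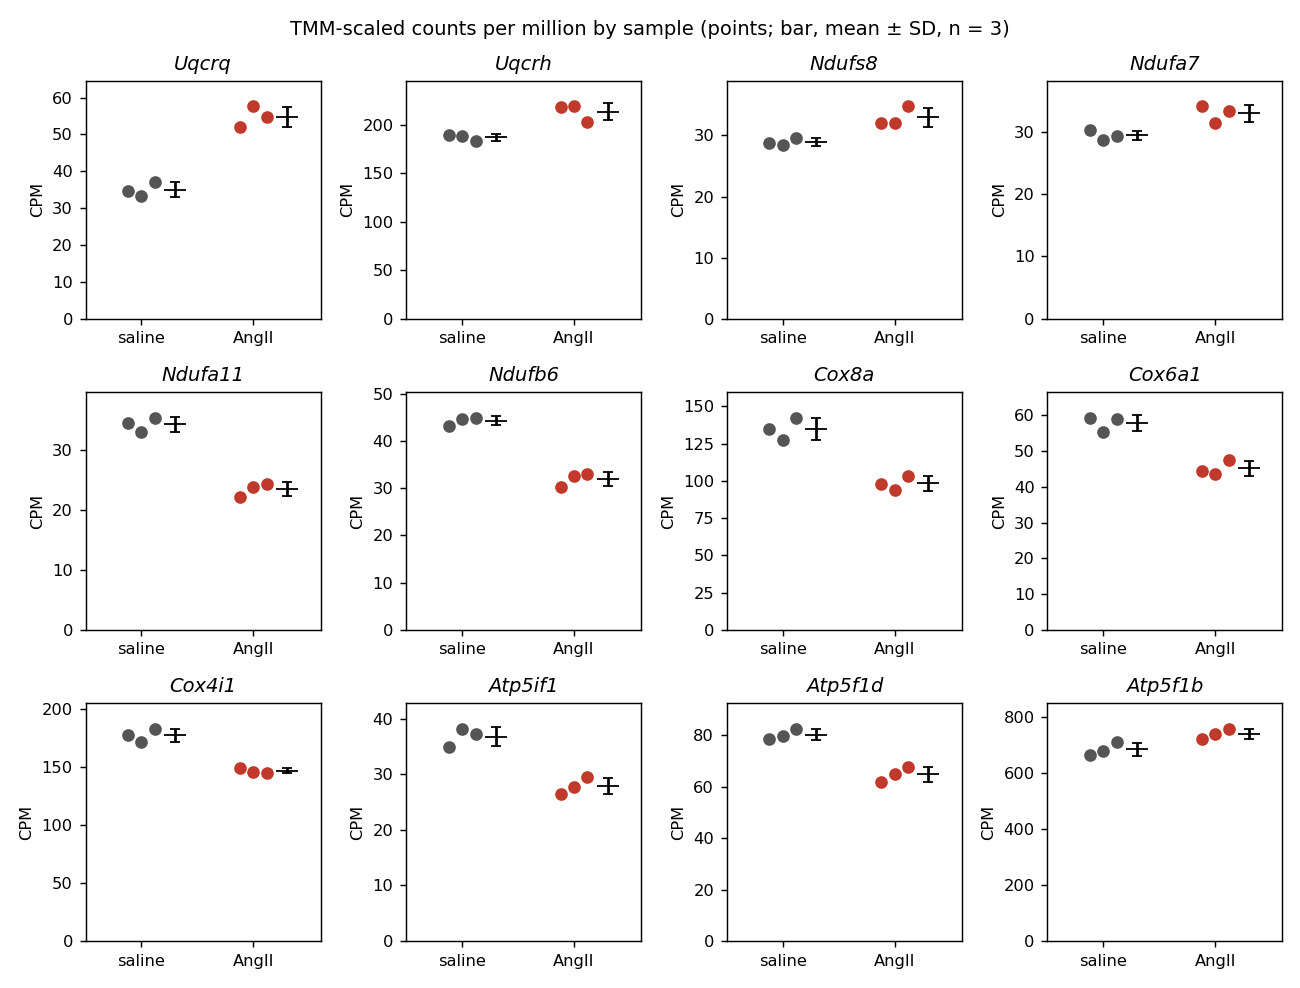
TMM-scaled CPM (y axis, from 0) of 12 respiratory chain genes in each saline and AngII sample, with points for samples and a bar for the mean ± SD (n = 3). The AngII samples lie above saline in the top row and for Atp5f1b, with Uqcrq at 52.07 to 57.6 against 33.34 to 37.15 CPM, and below saline for the other genes.

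Complex V, the ATP synthase, had a median log2 fold change of -0.05 among its nuclear genes (-0.02 with the GC and length trend removed or without AngII replicate 1, -0.03 without saline replicate 3 and -0.08 without AngII replicate 3), with 6 falls and 2 rises among 17 genes. The 2 rises became 4 without saline replicate 3 and 1 without saline replicate 1 or 2. Its summed level was 2550, 2594 and 2685 CPM in saline and 2525, 2593 and 2658 CPM in AngII, overlapping throughout. Within the catalytic F1 part, the beta subunit Atp5f1b, which holds the catalytic sites, was at 665.1, 678.1 and 709.9 CPM in saline and 720.1, 739.5 and 758 CPM in AngII. Its groups were narrowly apart, with a log2 fold change of 0.11 ± 0.03 (adjusted p = 0.00889), and the call was lost without saline replicate 1 or 2. The alpha subunit Atp5f1a fell by 0.10 (adjusted p = 0.0141) and did not pass without AngII replicate 1. Atp5f1d, the delta subunit of the central stalk, was at 78.6, 79.69 and 82.57 CPM in saline and 61.77, 65.07 and 67.55 CPM in AngII, a log2 fold change of -0.31 ± 0.04 (adjusted p = 2.3e-06).

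The c ring, which turns as protons pass, is encoded by 3 genes that yield the same mature protein. Atp5mc2 was at 146, 152.6 and 156.1 CPM in saline and 130, 134.4 and 126.2 CPM in AngII and fell by 0.22 (adjusted p = 3.2e-05). Atp5mc1 had a log2 fold change of 0.12 (adjusted p = 0.0565) and Atp5mc3 one of 0.06 (adjusted p = 0.281), both with overlapping groups. Atp5mc1 passed in 4 of 17 alternatives and Atp5mc3 in 2. Values of Atp5mc1 held fractions in all 6 samples, and how reads were divided among similar sequences is not given, so its level is uncertain. In the stalk and membrane part, Atp5mf (subunit f) rose by 0.15, from 123.7, 133.6 and 132.1 CPM to 141.6, 144.1 and 147 CPM, and Atp5mg (subunit g) fell by 0.18, from 135.4, 135.5 and 137.2 CPM to 115.2, 120.6 and 125 CPM. Neither gene's groups overlapped.

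Atp5if1 encodes the inhibitor that binds the synthase and limits ATP hydrolysis when the proton gradient fails. It was at 34.83, 38.19 and 37.19 CPM in saline and 26.46, 27.75 and 29.45 CPM in AngII. The groups were apart and the log2 fold change was -0.40 ± 0.06 (adjusted p = 6.9e-06), a call that passed under every alternative. Cox7a2l, a supercomplex assembly factor of which C57BL/6 mice are known to carry a shortened protein form, was at 206.1, 206.1 and 206.5 CPM in saline and 194.6, 189.6 and 190.8 CPM in AngII (log2 fold change -0.11, adjusted p = 0.00516). Cycs, the mobile carrier cytochrome c, was at 83.4, 82.6 and 87.17 CPM in saline and 87.05, 92.69 and 90.12 CPM in AngII. Its groups overlapped narrowly, its rise of 0.09 (adjusted p = 0.0416) was lost in 10 of 17 alternatives, and its values held fractions in 5 samples.

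The mitochondrial genome encodes 7 subunits of complex I, 1 of complex III, 3 of complex IV and 2 of complex V in this table, transcribed as long precursors that are then cleaved. mt-Co1 alone gave 54.12%, 54.07% and 53.78% of the mitochondrial counts in saline and 52.97%, 50.83% and 52.92% in AngII. Per length it stood far above the nuclear members with a known length, at 15837 CPM per kb in saline against 357.2 CPM per kb for Atp5f1b, the highest of them in saline; with AngII, Uqcrh was at 390.7 and Atp5f1b at 385.8 CPM per kb. Neighbouring genes overlap, so some reads belong to more than 1 gene. The longest overlap is that of mt-Atp8 and mt-Atp6, whose 43 shared bases (chrM:7927-7969, GRCm38, plus strand) are 21.1% of mt-Atp8 and are printed because they tie the values of the pair together. The run begins with the start codon of mt-Atp6 and ends with the stop codon of mt-Atp8.
mt-Atp8/mt-Atp6 overlap: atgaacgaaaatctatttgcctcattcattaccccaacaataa

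All 3 mitochondrial subunits of complex IV fell. mt-Co1, which holds the oxygen reduction site, was at 24551, 24141 and 24712 CPM in saline and 22367, 21977 and 21449 CPM in AngII. Every AngII sample was below every saline sample, and the log2 fold change was -0.16 ± 0.03 (adjusted p = 0.00051). mt-Co2, which takes electrons from cytochrome c, was at 1783, 1802 and 1946 CPM in saline and 1637, 1754 and 1711 CPM in AngII (log2 fold change -0.12, adjusted p = 0.0139), a call lost without saline replicate 3. mt-Co3 was at 2890, 2798 and 2915 CPM in saline and 2601, 2691 and 2660 CPM in AngII (log2 fold change -0.11, adjusted p = 0.006).

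Of the complex I genes of this genome, mt-Nd1 was at 1499, 1499 and 1542 CPM in saline and 1350, 1439 and 1365 CPM in AngII and fell by 0.13 (adjusted p = 0.00327). mt-Nd4, of the proton-pumping arm, was at 3856, 3734 and 3764 CPM in saline and 3641, 3597 and 3275 CPM in AngII and fell by 0.11 (adjusted p = 0.0202), but did not pass without saline replicate 1 or AngII replicate 3. Both had groups that did not overlap. mt-Nd4l, which shares 7 bases with mt-Nd4, fell by 0.15 (adjusted p = 0.0459) with overlapping groups and lost its call in 9 of 17 alternatives. mt-Nd2, mt-Nd3 and mt-Nd5 did not pass, with log2 fold changes of 0.07, -0.04 and 0.03. In the 17 alternatives mt-Nd2 passed in 2, mt-Nd5 in 1 and mt-Nd3 in 0.

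mt-Nd6, the only protein gene of the opposite strand, was the 1 mitochondrial gene that rose. It was at 29.23, 29.94 and 20.55 CPM in saline and 42.37, 37.98 and 27.89 CPM in AngII, so the lowest AngII sample lay within the saline range. The log2 fold change was 0.44 ± 0.13 (adjusted p = 0.00574), and the call was lost with DESeq2 and without saline replicate 3. The libraries kept strand information, but the strand setting of the counting is not given in the sources used here. For that reason mt-Nd6 RNA and RNA read from the other strand across the same bases cannot be told apart. It also shares 14 bases with mt-Nd5. The remaining mitochondrial genes did not pass: mt-Cytb of complex III had a log2 fold change of 0.06 (adjusted p = 0.136), and the complex V genes mt-Atp6 and mt-Atp8 had -0.08 (adjusted p = 0.113) and 0.05 (adjusted p = 0.754). In the 17 alternatives mt-Cytb and mt-Atp6 each passed in 1 and mt-Atp8 in 0. Counted as a sum, mt-Atp8 and mt-Atp6 gave 3498, 3540 and 3932 CPM in saline and 3422, 4041 and 3180 CPM in AngII, with wide overlap.

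**Figure D4:**
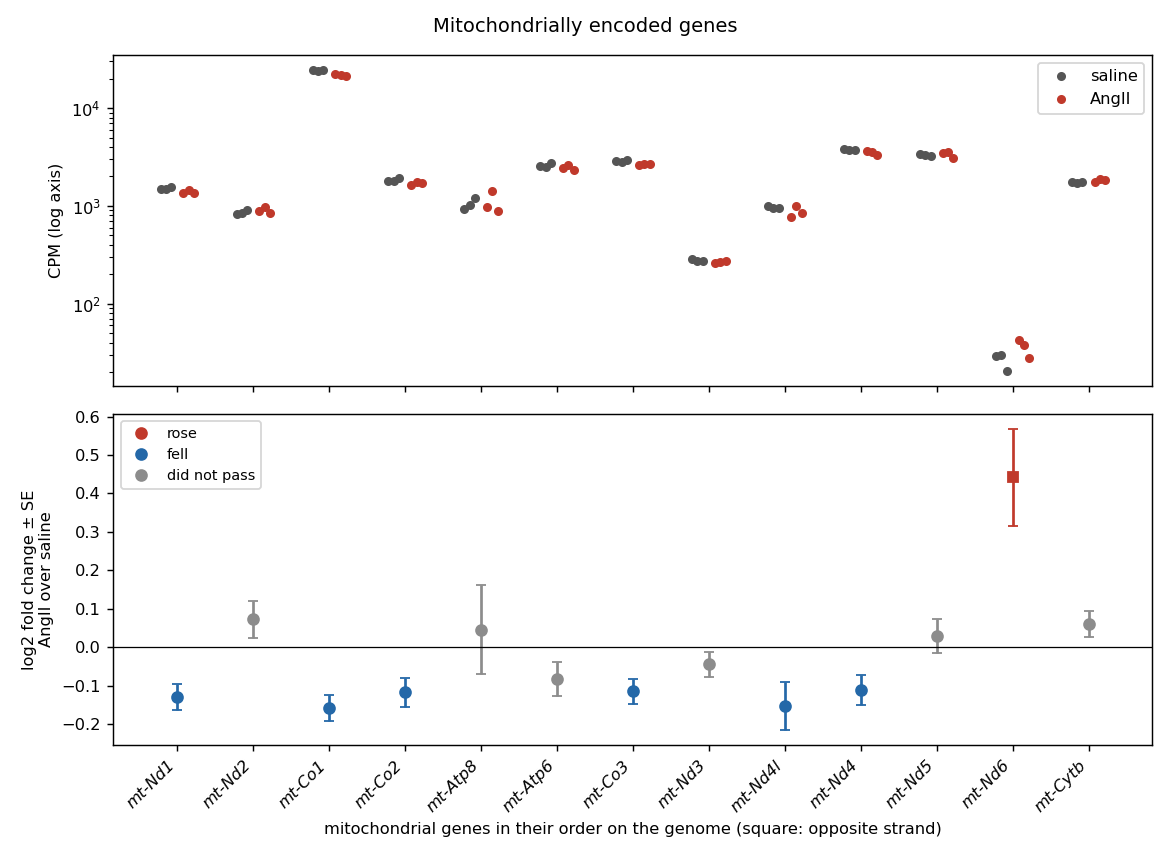
Level of each mitochondrially encoded gene per sample (top, CPM on a log axis) and its log2 fold change of AngII over saline ± SE (bottom, n = 3 per group), with genes in their order on the mitochondrial genome. The 6 genes that fell lie between -0.16 and -0.11, and mt-Nd6, on the opposite strand, stands apart at 0.44.

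Of 60 tested assembly and membrane insertion genes, 14 rose and 11 fell, shares below the 29% and 28.6% over all genes. Among complex I assembly factors 3 of 17 rose and 2 fell (median 0.06), with Ndufaf4 higher by 0.38 and Foxred1 by 0.45, and with Ndufaf3 lower by 0.29 and Tmem126b by 0.21; both falls were lost in some alternatives. Among complex II factors Sdhaf3 rose by 0.39 and Sdhaf2 by 0.14 while Sdhaf1 fell by 0.36, out of 4 tested; the call of Sdhaf1 was lost with DESeq2 and that of Sdhaf2 with the GC and length trend removed. Of 6 complex III factors 1 fell, Uqcc3, by 0.34. Complex IV factors split, with 7 of 22 rising and 4 falling (median 0.0027).

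Coa3, which stabilises newly made mt-Co1 protein, was at 12.38, 10.98 and 12.14 CPM in saline and 17.97, 17.03 and 16.97 CPM in AngII and rose by 0.55 (adjusted p = 2.7e-06). Cox16, which acts in copper delivery to mt-Co2, rose by 0.67 from low levels of 3.436 to 4.581 CPM. Surf1, needed for an early step of complex IV assembly, was at 21.79, 22.36 and 21.72 CPM in saline and 16.29, 16.19 and 13.61 CPM in AngII and fell by 0.52 (adjusted p = 5e-06). Sco2, a copper chaperone for mt-Co2, fell by 0.50. The groups did not overlap for any of these 4 genes, and together they show changes of both signs within the same assembly route. Of 4 complex V assembly factors 0 passed in edgeR, 0 at an unadjusted p below 0.05, and 0 in DESeq2 or limma-voom. Of 7 genes for supercomplexes and membrane insertion 3 fell, among them Chchd2 by 0.34 and Higd2a by 0.36, and 2 rose, Rab5if by 0.23 and Stmp1 by 0.14, the last lost without AngII replicate 2.

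Around coenzyme Q, 4 of 12 synthesis genes rose and 2 fell (median 0.12), beside 29% and 28.6% over all genes. Coq2 rose by 0.36 and Pdss1, which makes the tail of the molecule, by 0.43, while Coq6 fell by 0.39 and Coq4 by 0.22, the last lost in 10 of 17 alternatives. Of 6 tested genes for other electron entry 2 fell and 0 rose; 1 was higher in edgeR at an unadjusted p below 0.05, and DESeq2 and limma-voom called 0 higher. Sqor, which feeds electrons from hydrogen sulfide, was at 5.554, 5.398 and 5.548 CPM in saline and 2.562, 2.58 and 4.082 CPM in AngII (log2 fold change -0.83 ± 0.15, adjusted p = 0.00012). Etfdh, which feeds electrons from fatty acid oxidation, was at 42.92, 45.77 and 46.94 CPM in saline and 34.43, 36.96 and 37.78 CPM in AngII (log2 fold change -0.31 ± 0.05, adjusted p = 3e-05). Both were lower in every AngII sample than in any saline sample. Hccs, which attaches heme to cytochrome c, rose by 0.26 (adjusted p = 4.5e-05).

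Genes that copy, transcribe and process mitochondrial DNA and RNA were more often higher than lower, while the mitochondrial transcripts themselves were more often lower. Of 18 tested genes for mtDNA transcription and replication 9 rose and 1 fell (median 0.16), and of 19 for mitochondrial RNA processing 10 rose and 1 fell (median 0.16), beside a share of 29% rising over all genes. Tfam, which packages mtDNA and starts its transcription, was at 43.91, 41.14 and 44.82 CPM in saline and 47.66, 49.06 and 50.34 CPM in AngII and rose by 0.18 ± 0.05 (adjusted p = 0.00227). Top1mt, the mitochondrial topoisomerase, rose by 0.53, whereas Polg, the mtDNA polymerase, fell by 0.15. Polrmt, the mitochondrial RNA polymerase, had a log2 fold change of -0.11 and did not pass (adjusted p = 0.175). Fastkd5, needed to release certain mitochondrial mRNAs from their precursors, was at 7.954, 9.616 and 9.493 CPM in saline and 12.05, 12.81 and 15.33 CPM in AngII and rose by 0.57 ± 0.10 (adjusted p = 7.5e-05). Pnpt1, which degrades mitochondrial RNA, rose by 0.21, and Ptcd1 fell by 0.19, a call lost with the GC and length trend removed.

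**Figure D5:**
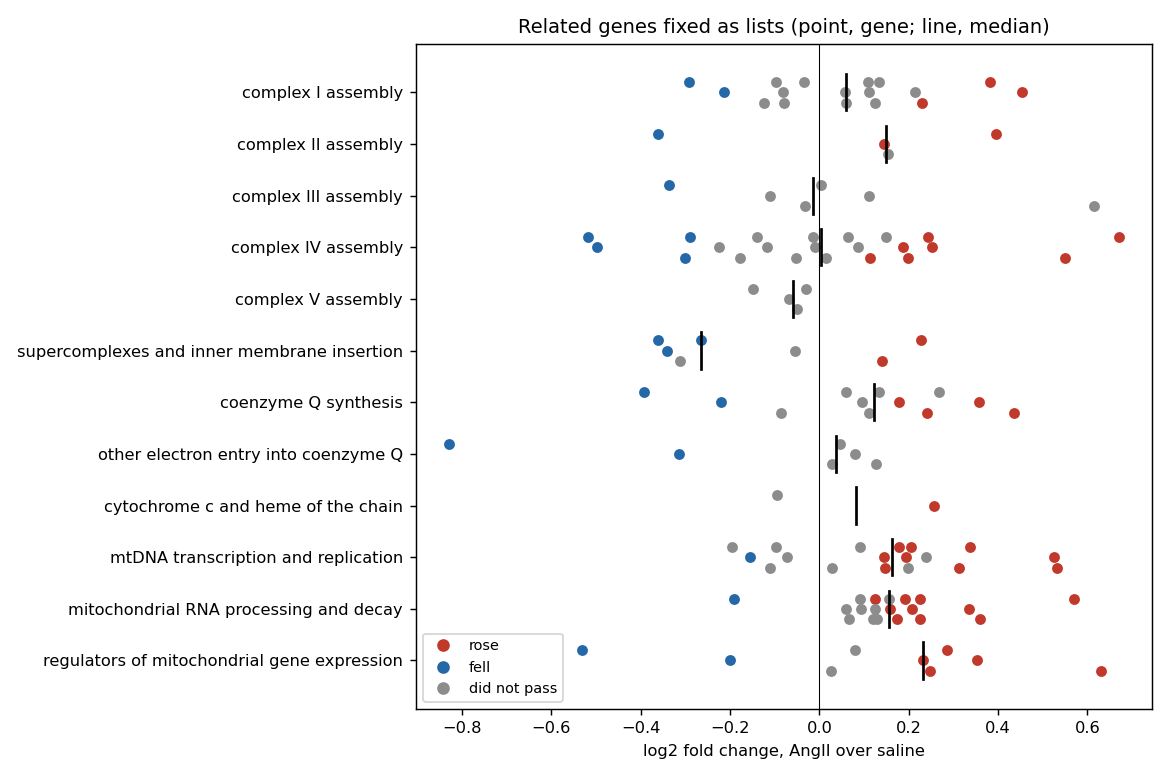
Log2 fold change of AngII over saline (x axis) for every tested gene of 12 lists related to the respiratory chain (y axis), with a line at each list's median. Points for mtDNA transcription and for mitochondrial RNA processing lie mostly right of 0 (medians 0.16), while assembly factors lie on both sides.

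Of 9 tested nuclear regulators of these genes 5 rose and 2 fell, beside 29% and 28.6% over all genes. Esrra, a nuclear receptor that drives respiratory chain genes, was at 40.99, 37.28 and 39.23 CPM in saline and 27.8, 25.62 and 27.77 CPM in AngII, a log2 fold change of -0.53 ± 0.05 (adjusted p = 1.3e-07). Nrf1, nuclear respiratory factor 1, was at 36.76, 36.69 and 37.28 CPM in saline and 34.06, 30.2 and 32.05 CPM in AngII (log2 fold change -0.20 ± 0.05, adjusted p = 0.00299). The groups were apart for both. Of the ETS factor GABP, also called nuclear respiratory factor 2, the DNA-binding subunit Gabpa rose by 0.28 (adjusted p = 2.8e-06). Its partner Gabpb2 rose by 0.63 ± 0.04, from 73.75, 82.51 and 76.33 CPM to 116.7, 122.5 and 120.7 CPM (adjusted p = 2.3e-10), while Gabpb1 had a log2 fold change of 0.08 and did not pass. Gabpb1 passed in 2 of 17 alternatives. Values of Gabpb2 held fractions in all 6 samples, so its level is uncertain.

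The coactivator Ppargc1a (PGC-1 alpha), which works with Esrra, Nrf1 and GABP, was at 24.8, 24.72 and 24.01 CPM in saline and 30.82, 30.91 and 24.81 CPM in AngII. AngII replicate 3 lay just above the saline samples, and the rise of 0.23 ± 0.07 (adjusted p = 0.0101) was lost without AngII replicate 2 or with the GC and length trend removed. Its relative Ppargc1b rose by 0.35 from a saline level of 3.554 to 4.264 CPM (adjusted p = 0.0166), a call lost with DESeq2 and in 2 fits with a sample left out.

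The promoters of the members were searched on both strands for an NRF1 motif, an ETS motif and the amino acid response motif. The search covered 300 bases around each RefSeq start (GRCm38.p6), from 250 before to 50 after it, and no Esrra motif was searched. The table held a promoter for 69 of the 84 nuclear members, and 66 were used, those with a start within 100 bases of a GENCODE transcript start of the same gene. Uqcrq, with the largest rise, and Atp5if1 and Ndufa13, among the larger falls, were not among these 66. The NRF1 motif (GCGCA, any base, then GCGC, on either strand) stood in 17 of 66 (25.8%), against 11.8% of the 9176 tested genes with such a promoter. It stood in 10 of 28 members that fell, in 7 of 28 tested members that did not pass and in 0 of 7 that rose; with every RefSeq start used, it stood in 11 of 30 that fell, 7 of 29 that did not pass and 0 of 7 that rose. The ETS motif CCGGAAG stood in 16 of 66 (24.2%), against 20.7% of tested genes, and in 7 of 28 that fell and 2 of 7 that rose. The amino acid response motif TGATGNAA stood in 0 of 66, against 2.66%. A match only says that these letters are present; binding was not measured.

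The 250 bases before the start are printed for Ndufa11 (chr17:56717512-56717761, plus strand), Ndufb6 (chr4:40279422-40279671, minus strand) and Cox6a1 (chr5:115348959-115349208, minus strand), among the members with the largest falls, and for Uqcrh (chr4:116075071-116075320, minus strand), which rose. They show where the motifs lie in genes that moved in opposite directions, and each is written 5′ to 3′ on the gene's own strand with the motifs in capitals. An NRF1 match begins at position -60 in Ndufa11 and at -162 and -117 in Cox6a1, and an ETS match at -232 in Ndufb6, -16 in Cox6a1 and -10 in Uqcrh. In the same window Cox8a, Ndufb2 and Atp5f1d, also among the largest falls, and Ndufs8, which rose, held neither. The genes printed are thus only those in which a motif was found.
Ndufa11: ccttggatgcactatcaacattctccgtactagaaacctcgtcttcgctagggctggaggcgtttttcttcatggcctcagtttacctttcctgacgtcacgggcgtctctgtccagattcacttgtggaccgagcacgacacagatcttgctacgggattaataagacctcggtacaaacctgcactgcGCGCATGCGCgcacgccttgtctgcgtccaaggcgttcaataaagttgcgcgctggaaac
Ndufb6: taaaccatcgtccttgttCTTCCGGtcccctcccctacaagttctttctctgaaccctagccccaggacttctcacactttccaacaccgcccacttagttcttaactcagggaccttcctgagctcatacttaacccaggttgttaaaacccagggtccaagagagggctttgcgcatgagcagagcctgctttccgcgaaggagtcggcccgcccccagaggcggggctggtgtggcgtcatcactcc
Cox6a1: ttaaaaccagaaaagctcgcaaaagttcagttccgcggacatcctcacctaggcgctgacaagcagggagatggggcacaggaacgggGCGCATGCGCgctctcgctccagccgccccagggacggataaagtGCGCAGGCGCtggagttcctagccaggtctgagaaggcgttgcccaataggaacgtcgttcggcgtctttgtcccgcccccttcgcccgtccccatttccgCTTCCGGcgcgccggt
Uqcrh: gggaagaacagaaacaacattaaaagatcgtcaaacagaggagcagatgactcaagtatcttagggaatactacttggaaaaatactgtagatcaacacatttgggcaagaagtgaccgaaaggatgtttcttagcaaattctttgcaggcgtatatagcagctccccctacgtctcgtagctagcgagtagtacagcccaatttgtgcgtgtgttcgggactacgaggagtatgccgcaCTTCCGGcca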

How the data were processed

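RNA was measured in 6 samples of primary mouse aortic endothelial cells, 3 per group. Per the labels' protocols, libraries were made from purified messenger RNA and kept strand (dUTP). The authors deposited 1 table of expected counts (each an estimated count of reads per gene symbol), not scaled, with 83% of values whole. Of the genes discussed, Atp5mc1, mt-Atp6, mt-Atp8, mt-Nd4, mt-Nd4l, Coq4, Cox16, Sco2, Chchd2, Fastkd5 and Gabpb2 held fractions in all 6 samples. Their levels share the uncertainty given for Atp5mc1. HISAT2 and mm10 are named in the submitters' processing notes; the quantifier, annotation and strand setting are not given in the sources used here. These counts were rounded to integers and compared in edgeR 4.0.16 (R 4.3.3; TMM scaling, filterByExpr with minimum count 10 and total 15, quasi-likelihood F-test, Benjamini-Hochberg over 12277 genes, threshold 0.05). Levels are TMM-scaled CPM, and fold changes are AngII over saline on the log2 scale with a standard error of the estimate divided by the square root of F. The labels do not state separate animals, so the p-values reflect sample-to-sample spread alone, possibly technical. All replicate pairs differed beyond counting noise (chi-square per degree of freedom 2.37 to 5.8). Coordinates came from GENCODE M21 (GRCm38), which may not be the authors' annotation and matched 94 of 97 members; promoters came from RefSeq, and the 100-base limit on their starts was chosen after seeing the data.

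Alternatives were RLE scaling, library totals, scaling without mt- genes, no count filter, a 5 CPM filter, DESeq2 1.42.0, limma-voom (limma 3.58.1), a replicate block, removal of the GC and length trend alone and with the block, a test against 1.2-fold, and each sample left out. The procedure was tested on simulated data. The members, lists and tests were chosen with earlier results of these data known. All mt- genes were named, members that passed with a change of at least 0.32 on the log2 scale, up to 3 rises and 3 falls per complex by p, isoform pairs, the Sdh genes, Cycs, Atp5if1, up to 2 rises and 2 falls per list and 7 fixed regulators. Atp5f1a, Cd68, Cox5a, Cox5b, Cox6c, Cox7b, Cox7c, Cyc1, Gabpb1, Ndufs1, Ndufs4, Ndufv1, Uqcrb and Uqcrc2 fall outside that rule and were chosen after their values were seen. Cell types were checked by fixed marker lists. Of the genes that the naming rule selects, 1 is not reported here.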

Additional observations from a re-analysis of the deposited data

How the results depend on the processing

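Of 106 tested genes followed through the alternatives, 87 passed, and 0 of these reversed direction under any of them. The test against 1.2-fold called 2276 genes in place of 7072, 1 nuclear member higher and 5 lower, and 0 mitochondrially encoded genes higher and 0 lower. DESeq2 called 6024 genes and 0 mitochondrially encoded genes higher, and without a count filter 2 were higher. With the GC and length trend removed, the median log2 fold changes were -0.0461 for nuclear members, -0.0134 for complex I, -0.0654 for complex III and -0.0150 for complex V; with the replicate block added they were -0.0464, -0.0147, -0.0651 and -0.0153. The cause of these shifts was not tested. Leaving out 1 sample in turn gave 4 to 12 nuclear members higher, 0 to 3 mitochondrially encoded genes higher (3 without AngII replicate 3, 0 without saline replicate 3), and medians of -0.1070 to -0.0644 for nuclear members, -0.1040 to -0.0469 for complex I, -0.1365 to -0.0748 for complex III and -0.0787 to -0.0158 for complex V. In those fits 30 to 38 nuclear and 4 to 7 mitochondrially encoded members were lower. Of 40 falls 28, and of 10 rises 4, passed in every alternative but the 1.2-fold test.

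With the replicate block alone, 9 nuclear members were higher, 35 lower, 1 mitochondrially encoded gene higher and 6 lower. Samples of the same number correlated at 0.083, 0.052 and 0.008 in their deviations from the group means, and not every sample correlated best with its own number, so the numbers were not taken to pair the samples. Genes below the count filter, such as the muscle isoforms of complex IV, rest on too few counts for a comparison at this depth.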
